A study of Mus musculus with 6 samples.

Results

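The mouse miRNAs numbered miR-6900 to miR-7099 entered the miRNA catalogue late, and they are described as mirtron-like: hairpins that lie in introns and owe at least one of their ends to splicing. They were taken here by name alone, as every row of the liver miRNA table whose number falls in that range, with rows at 0 kept. This gave 395 mature arms (198 from the 5p side and 197 from the 3p side of a hairpin) of the 1907 miRNAs in the table. Small RNA was sequenced from uninjured livers of C57BL/6N mice aged 12 weeks, 3 females and 3 males, all on a chow diet and called littermates in the labels. Sex is the only difference between the groups that the labels give. The series is about SAB, a protein of the outer mitochondrial membrane, and acute liver injury whose severity depends on sex. Here the comparison asks which of these miRNAs differ between female and male liver before injury.

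Most miRNAs are cut from a long primary transcript by the nuclear enzyme Drosha, and the freed hairpin is then cut by Dicer into a 5p and a 3p arm, one of which usually guides Argonaute to target mRNAs through its seed, bases 2 to 8. A mirtron takes another route. The spliceosome excises a short intron, the lariat is opened, and the intron folds into a hairpin that Dicer can cut without any work by Drosha. In a tailed mirtron only one end of the hairpin is a splice site, and the extra intron sequence at the other end is trimmed away by nucleases.

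A splice site was looked for at each arm in the GENCODE M21 annotation, which uses the same mm10 (GRCm38) build as the table. Of the 197 3p arms, 184 (93.4%) ended within 2 bases of the 3′ end of an annotated intron on the same strand, and 154 (78.2%) ended on its last base. Only 18 of the 198 5p arms (9.09%) began within 2 bases of the 5′ end of an intron, 17 of them on its first base. The same measure in the 1512 other miRNAs of the table gave 40 of 602 3p arms (6.64%) and 9 of 590 5p arms (1.53%). Among miR-1 to miR-999, the catalogue's early entries, 2 of 375 3p arms (0.533%) met an intron end. By position, the label mirtron-like described the 3′ side of these hairpins, and few of them on the 5′ side. This compares listed positions with annotated introns and uses no reads, so it does not test the label.

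**Figure D1:**
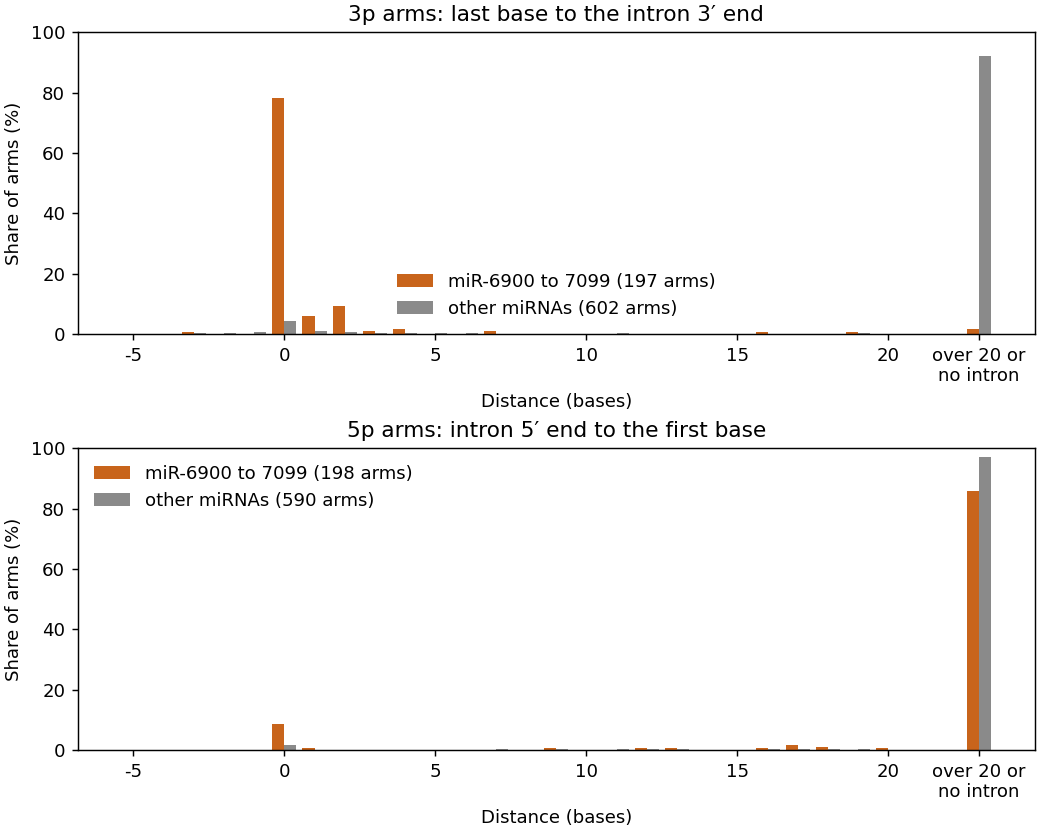
Share of 3p arms (top) and 5p arms (bottom) at each distance in bases from the end of the nearest annotated intron, for miR-6900 to miR-7099 (orange) and the other miRNAs of the table (grey). In the top panel 78.2% of the orange arms stand at distance 0, and in the bottom panel most arms of both sets lie more than 20 bases from an intron start or in no intron.

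By hairpin, 171 of 199 hairpin names (85.9%) had the 3p end alone at a splice site, the arrangement of a 5′-tailed mirtron. Another 13 (6.53%) had both ends at the splice sites of one intron, the conventional mirtron, and 5 had the 5p end alone. The remaining 10 had neither. For 2 of these 10, miR-7094-1 and miR-7094b-2, the table has a 5p arm only under that name. The intron holding a conventional hairpin had a median length of 85 bases (72 to 137), against 540 bases (75 to 19696) for hairpins with the 3p end alone. With an overhang of up to 5 bases allowed, 394 of the 395 arms lay inside an annotated intron. The exception, miR-7025-5p, overlapped an exon of Pdgfra, and miR-7029-3p ran 3 bases past the end of its intron into an exon of Gcn1l1. An exon of some annotated transcript on the same strand overlapped 62 arms (15.7%), so that reads of spliced or partly spliced host RNA could be counted there; among the other miRNAs this share was 20.6%.

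The sequences show the difference between both arrangements. The hairpins below are from RefSeq (GRCm38.p6), 5′ to 3′, with the arms that RefSeq lists in capitals. Mir6944, in Dbn1 (drebrin, an actin-binding protein), is a conventional case shown because it fills its intron from the first base to the last, and both are arms. Mir6978, in C3 (complement component 3, a plasma protein made mainly by hepatocytes), and Mir7008, in Prkci (an atypical protein kinase C), end on the last base of their introns but start within them.
Mir6944, chr13:55477681-55477776, minus strand: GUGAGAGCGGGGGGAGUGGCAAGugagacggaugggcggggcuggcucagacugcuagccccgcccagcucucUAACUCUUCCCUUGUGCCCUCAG
Mir6978, chr17:57217172-57217228, minus strand: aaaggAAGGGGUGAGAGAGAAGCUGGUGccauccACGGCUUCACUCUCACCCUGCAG
Mir7008, chr3:31038966-31039028, plus strand: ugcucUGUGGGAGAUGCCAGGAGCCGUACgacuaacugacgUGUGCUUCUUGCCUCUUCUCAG

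A mature sequence was found in RefSeq at the same position for 347 of the 395 arms, 174 of the 5p and 173 of the 3p side. Of the 3p arms, 136 (78.6%) ended in AG, the last bases of nearly every intron, against 11.5% of 504 other 3p miRNAs. All 134 3p arms that ended on the last base of an intron ended in AG, as did 2 of the 39 that ended elsewhere. The 3p arms were 71.8% pyrimidine (40.2% C and 31.5% U), and the 5p arms were 67.3% purine, with 44.3% G. In other miRNAs the 3p arms had 53.9% pyrimidine and the 5p arms 29.1% G. A run of GGG stood in 75.9% of the 5p arms and in 28.2% of other 5p miRNAs. As background, most introns end in a pyrimidine-rich tract followed by AG. The 6 3p arms with the highest mean level among those that have a RefSeq sequence and end exactly on an intron end are shown to make the shared ending visible, with the last bases in capitals.
miR-6978-3p: acggcuucacucucacccugcAG
miR-6911-3p: ucaaucacacucuguccacAG
miR-6964-3p: uuucuugucuuccacucuAG
miR-7023-3p: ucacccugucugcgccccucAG
miR-7075-3p: caaccaugucuucuuucccAG
miR-7015-3p: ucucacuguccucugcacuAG

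The liver libraries held between 3285249 and 5756418 counts in females and between 4617647 and 16444674 in males, so that 1 count stood for 0.0635 to 0.285 CPM (counts scaled to 1000000 per library, with library sizes adjusted by TMM, the trimmed mean of M-values). The hepatocyte miRNA miR-122-5p took 32.5 to 35.5% of the counts of each library, which fits the labelled tissue. Markers of other cells were also counted. The 4 leukocyte markers summed to 3990 to 4556 CPM in females and 2869 to 4419 CPM in males, and the 4 stromal markers to 8627 to 11164 CPM and 11727 to 12532 CPM.

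Set against that, the mirtron-like arms were very low. They made up 20.7% of the rows of the table and 0.00918% of its counts, 3674 of all counts in the 6 libraries. Their summed level was 87.2, 95.5 and 82.1 CPM in the female libraries and 87.2, 118 and 92.9 CPM in the male libraries. Male replicate 2 was the highest, and the other males lay within the range of the females. The means were 88.2 ± 6.75 CPM (females) and 99.3 ± 16.3 CPM (males; SD, n = 3 each), a difference of -11.1 CPM (females minus males) that is smaller than the male SD. Scaled to plain library totals, the means were 92.6 ± 5.41 and 94.3 ± 12.1 counts per 1000000. In whole liver, fewer cells of a type and less RNA per cell cannot be told apart.

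**Figure D2:**
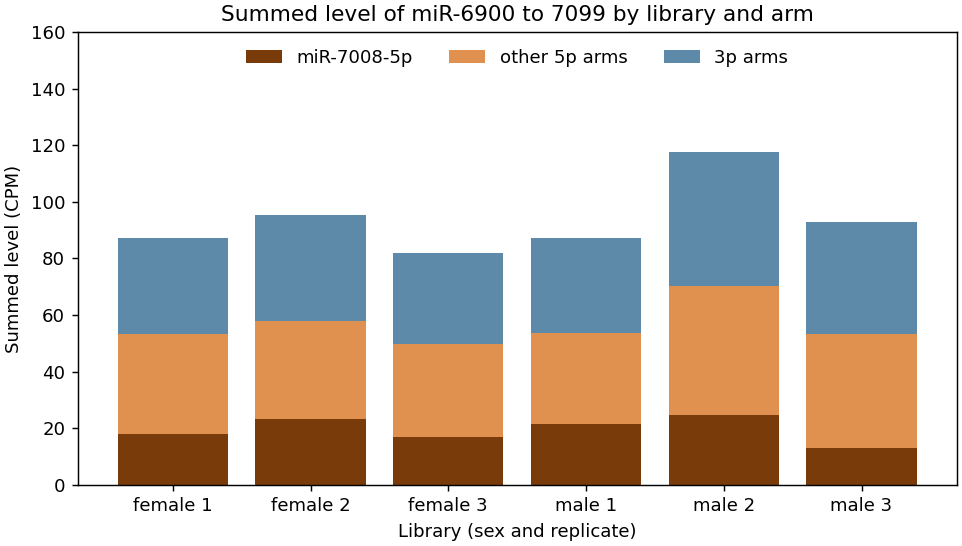
Summed level in CPM (y axis, from 0) of miR-6900 to miR-7099 in each library (x axis), stacked as miR-7008-5p, the other 5p arms and the 3p arms. Male replicate 2 is the tallest bar at 118 CPM, and the other 5 libraries lie between 82.1 and 95.5 CPM.

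Most arms were met at least once, but few were met everywhere. A count was seen for 341 of the 395 (86.3%), close to the 85.4% of miR-1 to miR-999. In all 6 libraries a count was seen for 33 (8.35%), against 45.9% of miR-1 to miR-999. Neighbouring late names were low as well. A count in all 6 was seen for 14.2% of miR-6000 to miR-6899 and 6.44% of miR-7100 and above, and both sets had a median of 2 counts. The median of the 395 arms was 3 counts over the 6 libraries together, and 324 of the 395 had fewer than 10. Of these 324, 54 had none, which allows each of them up to 3 counts, or 0.191 to 0.855 CPM, in a library (counting error only). The number seen in a library was 157, 133 and 114 in females and 159, 143 and 259 in males, and it followed the depth of the libraries. At the depth of the shallowest library the expected numbers were 114, 128 and 114 in females and 110, 118 and 124 in males. At that depth male replicate 3 no longer stood above the other libraries, and the sexes overlapped. Of the 341 arms seen, 90 had counts in males only and 39 in females only, from male libraries with more reads in sum. Without the same share over the whole table, this split is not read as a difference between the sexes.

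**Figure D3:**
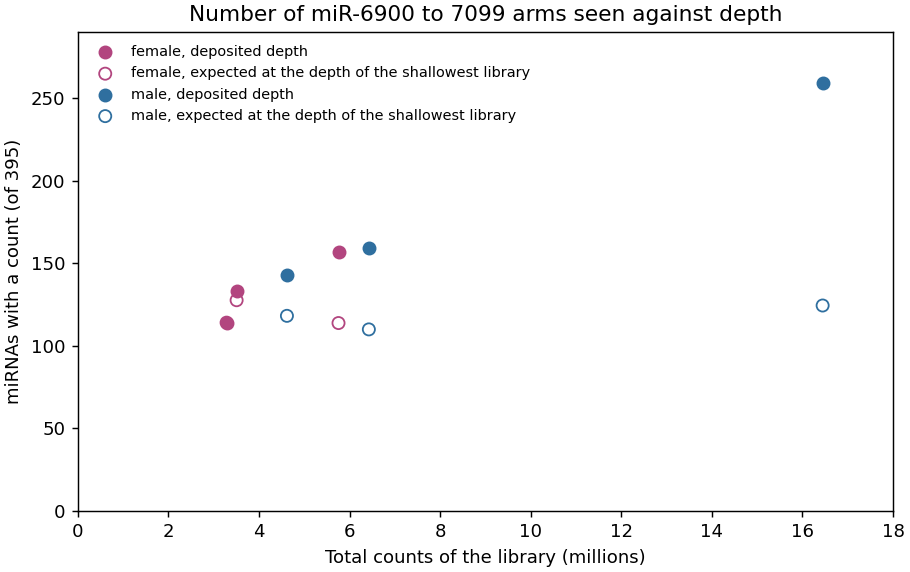
Number of the 395 arms with a count (y axis) against the total counts of the library (x axis), by sex. Filled points are the deposited counts, from 114 to 259, and open points the expected number at the depth of the shallowest library, from 110 to 128; for that library both points coincide.

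The name range sets the edges of the group. Just inside it, both arms of miR-6900, in Ndufa10, had 2 counts each in total and miR-7094-3p, from immunoglobulin heavy-chain variable genes, had 3. Just outside, miR-6899-3p, in Klf7, had 23 counts and its 3p end on the last base of the intron, so the arrangement does not begin at the number 6900. The next name above, miR-7115-3p, in Arrb2, had a 3p end on an intron end too and no count. Over the neighbouring names, 5 of 13 3p arms of miR-6000 to miR-6899 (38.5%) and 12 of 85 of miR-7100 and above (14.1%) met an intron end.

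Counts fell on both arms, in shares that differed between hairpins. The 5p arms took 61.2%, 60.6% and 60.8% of the counts in females and 61.3%, 59.7% and 57.6% in males. The exact binomial 95% interval was 54.9 to 66.4% in the shallowest library, female replicate 3, and 55.0 to 60.1% in the deepest, male replicate 3. It covers counting error only and leaves out the spread between hairpins and between animals. Without miR-7008-5p the 5p share was 47.9 to 51.1% in the 6 libraries. Of the 188 hairpins with both arms in the table and a count, 99 had more 3p counts, 70 more 5p counts and 19 the same of each. Both arms were seen for 150. Only miR-6964, in C2cd2, and miR-6982, in Camk2a, had both arms in all 6 libraries, with 37 5p and 38 3p counts for miR-6964 and 12 and 13 for miR-6982. The conventional mirtrons were as low as the tailed ones: a median of 4 counts for the arms of the 13 hairpins with both ends at splice sites, and 3 for those with the 3p end alone. No arm of a conventional mirtron passed the filter on low counts. Together these 13 hairpins summed to 2.31, 2.49 and 2.28 CPM in females and 2.69, 5.43 and 3.81 CPM in males. Each male sum lay above each female sum, on 131 counts in all. The gap between female replicate 2 (2.49) and male replicate 1 (2.69) was less than 1 count of female replicate 2, or 0.277 CPM. A sum over chosen miRNAs was not tested.

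The level was concentrated in a few arms, and the 10 with the most counts held 41.6% of all counts of these miRNAs. The 10 arms of highest mean CPM are miR-7064-3p and the 9 given below in order of that level, with the seed in capitals to show that no seed recurs among these 9.
miR-7008-5p: uGUGGGAGaugccaggagccguac
miR-6978-3p: aCGGCUUCacucucacccugcag
miR-7021-5p: aUAGGAGUugauuacagagcaa
miR-7036a-5p: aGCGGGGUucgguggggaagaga
miR-6937-5p: uAGCUGUAagggcugggucugugu
miR-6942-5p: uAGGAGGAggggaacauuugc
miR-7016-5p: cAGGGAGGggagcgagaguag
miR-7081-5p: aGAGGAGGgugcucggccggggauua
miR-6968-5p: aGGGGGCGagggggcccugugg

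Across the whole group, the 302 arms with a count and a RefSeq sequence had 281 distinct seeds. A seed was shared by at least 2 arms in 20 cases, 41 arms in all. The pair miR-7008-5p and miR-6922-5p, the latter in Srebf1, the regulator of lipid synthesis, shared GUGGGAG; miR-6942-5p and miR-6916-5p shared AGGAGGA; and miR-7018-3p, miR-7023-3p and miR-7068-3p shared CACCCUG. None shared its seed with one of the 50 most abundant liver miRNAs, 44 of which had a RefSeq sequence. For each of the 9 sequences above, neither the whole arm nor its first 16 bases occurred in a GENCODE transcript of a gene other than its own hairpin or host.

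The most abundant of all, miR-7008-5p (chr3:31038971-31038994, plus strand), comes from an intron of Prkci of 481 bases, with 109, 84 and 59 counts in females and 136, 104 and 204 in males. In CPM this was 17.998, 23.2 and 16.8 in females and 21.5, 24.6 and 13.0 in males, and the sexes overlapped. It alone held 18.9% of the counts of the group. The other arm, miR-7008-3p, which ends on the splice site, had 4 counts in all. Means of 19.4 ± 3.42 CPM and 19.7 ± 6.01 CPM (SD, n = 3 each) gave a log2 fold change, female over male, of -0.0013 (SE 0.27; adjusted p = 0.996, edgeR). Its sign turned in 7 of 14 alternative fits, in none of which it passed.

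The second, miR-6978-3p (chr17:57217172-57217194, minus strand), comes from a 94-base intron of C3. It had 5.94, 5.81 and 4.56 CPM in the female libraries and 1.90, 6.14 and 2.41 CPM in the male libraries, so that male replicate 2 was the highest library and the other males the lowest. This gave a log2 fold change of 0.79 (SE 0.41; adjusted p = 0.323, edgeR). Without male replicate 2 it was 1.31 and passed (adjusted p = 0.0288). In contrast to miR-7008 the 3p arm dominated, with 149 counts against 9 for miR-6978-5p. A second complement gene, Cfb (factor B), also hosts such a hairpin, in an intron of 99 bases: miR-6972-3p had 43 counts and miR-6972-5p 1. This pair of hosts was picked out after the values were seen.

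Of the 395 arms, 8 passed the filter on low counts (about 1.93 CPM in at least 3 libraries), or 2.03%, against 36.4% of miR-1 to miR-999. The other 387 were not tested. At an adjusted p under 0.05, miR-7081-5p was higher and miR-7021-5p lower in females, 2 of the 8 tested arms. Over all 370 tested miRNAs 25 passed, a background of 6.76%, with 3.24% higher and 3.51% lower in females. Both arms reached the filter through the group in which they were high, miR-7081-5p with 3 female libraries and no male, and miR-7021-5p with 3 male libraries and 1 female. For miR-7081-5p this fixed a difference between the groups, and for miR-7021-5p it favoured one. The share of 2 in 8 is therefore no measure of how often these miRNAs differ. The median log2 fold change of the 8 was 0.08, and -0.01 over all 370.

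In females miR-7081-5p (chr9:20914134-20914159, minus strand) rose. It comes from an intron of Dnmt1, the maintenance DNA methyltransferase, with 15, 12 and 8 counts in females and 2, 4 and 8 in males. In CPM this was 2.48, 3.32 and 2.28 in females and 0.316, 0.944 and 0.508 in males. The lowest female library was above the highest male library. With 3 female libraries and no male library past the filter, this separation came with its entry into the test and is no further evidence. The means of 2.69 ± 0.553 and 0.59 ± 0.322 CPM (SD, n = 3 each) differed 4.57-fold. On the log2 scale the fold change was 2.27, with an SE of 0.43 and an adjusted p of 0.0104 in edgeR. From summed counts, 35 in females and 14 in males, the ratio was 4.99 (95% exact counting interval 2.62 to 10.04). This interval covers counting error only, leaves out the spread between animals, and adds no support to the difference. A two-sided exact permutation test cannot go below p = 0.1 with 3 animals in each group. It gave that value, as it must for groups without overlap. The call was lost in edgeR when female replicate 2 (adjusted p = 0.0986), female replicate 3 (0.0552) or male replicate 3 (0.0963) was left out. The other arm, miR-7081-3p, had 3 counts, all in male replicate 3.

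In the opposite direction, miR-7021-5p (chr4:143136136-143136157, minus strand) fell in females. Its host is Prdm2, a zinc finger protein of the histone methyltransferase family, where it lies near the 3′ end of an intron of 6024 bases. Counts were 4, 8 and 3 in females and 23, 22 and 60 in males. In CPM this was 0.660, 2.21 and 0.855 in females and 3.64, 5.19 and 3.81 in males, again without overlap. The means of 1.24 ± 0.846 and 4.21 ± 0.852 CPM (SD, n = 3 each) differed 3.39-fold. This is a log2 fold change of -1.81 (SE 0.44; adjusted p = 0.0387, edgeR; exact permutation p = 0.1). This call was lost in edgeR when female replicate 1 (adjusted p = 0.116), female replicate 3 (0.149) or male replicate 3 (0.0933) was left out. Its other arm, miR-7021-3p, had 4 counts, all in male replicate 3.

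**Figure D4:**
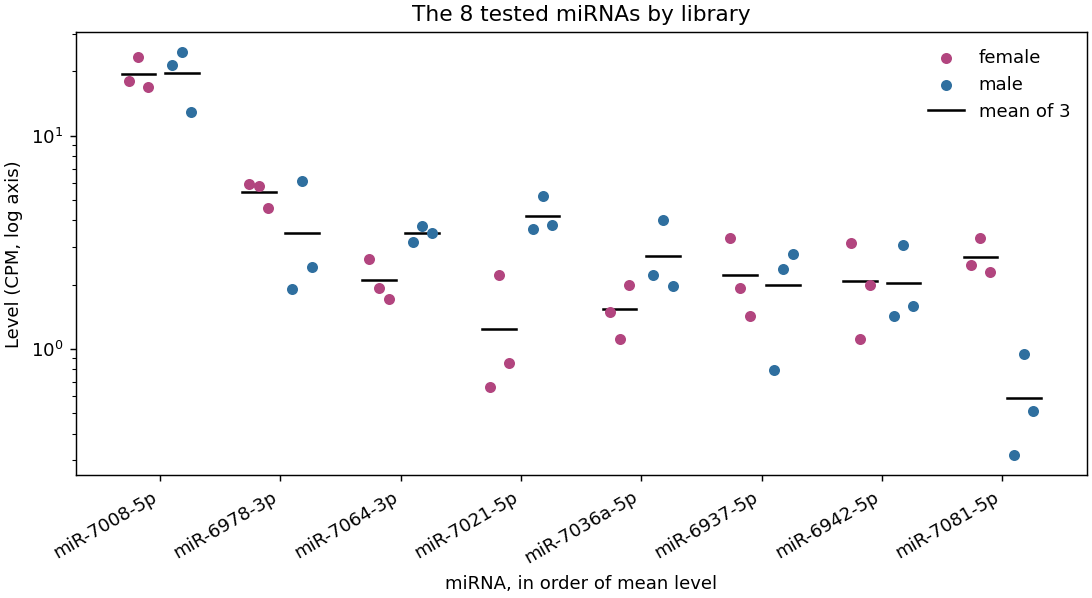
Level in CPM (log axis) of the 8 tested arms in each female and male library; points are libraries and bars the means of 3. The sexes do not overlap for miR-7064-3p, miR-7021-5p and miR-7081-5p, and miR-7008-5p lies above the other 7 in every library.

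The remaining tested arms did not pass. The 3p arm miR-7064-3p (chr7:143570673-143570693, minus strand), in Cars, the gene of the cysteinyl-tRNA synthetase, had 2.64, 1.94 and 1.71 CPM in the female libraries and 3.16, 3.78 and 3.49 CPM in the male libraries. Its sexes did not overlap either, but its log2 fold change of -0.67 (SE 0.32) had an adjusted p of 0.299 in edgeR. Groups without overlap were thus seen for 3 of the 8 tested arms and for 21.6% of the 370 tested miRNAs. Among the 3, miR-7081-5p and miR-7021-5p reached the filter through the group in which they were high. The 2 shares can therefore not be read as an excess among these arms. The next, miR-7036a-5p, in Srrt (ARS2, a partner of the nuclear cap-binding complex in RNA processing), overlaps an exon of a Srrt transcript. It had 1.49, 1.11 and 1.995 CPM in the female libraries and 2.22, 4.01 and 1.97 CPM in the male libraries, with a log2 fold change of -0.72 (adjusted p = 0.411, edgeR).

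Male and female libraries were mixed for miR-6937-5p, in Adi1, an enzyme of methionine salvage. It had 3.30, 1.94 and 1.43 CPM in the female libraries and 0.791, 2.36 and 2.79 CPM in the male libraries (log2 fold change 0.17, adjusted p = 0.894, edgeR). For miR-6942-5p, in Zkscan3, a zinc finger repressor of autophagy genes, the values were 3.14, 1.11 and 1.995 CPM in females and 1.42, 3.07 and 1.59 CPM in males (0.24, adjusted p = 0.822, edgeR). The last 2 of the 10 highest arms did not pass the filter. Of these, miR-7016-5p, in Tmem39b, had means of 1.36 ± 0.497 CPM (females) and 2.30 ± 1.48 CPM (males). For miR-6968-5p, in Phf1, a Polycomb-associated protein, the means were 1.05 ± 1.02 and 1.94 ± 0.845 CPM (SD, n = 3 each).

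With no filter on low counts, 341 of the arms entered the fit and the same pair passed, miR-7081-5p (adjusted p = 0.0110) and miR-7021-5p (adjusted p = 0.0120, both edgeR). In that fit 1.89% of 1588 miRNAs passed. An unadjusted p under 0.05 was reached by 9 of the 341 arms and 116 of the 1588 miRNAs. With the filter on low counts, few cell-type markers passed between the sexes, and no marker on the lists was at 0 in all libraries. None passed among the tested erythroid (4), endothelial (2), biliary and epithelial (4) and muscle (2) markers. Over all 370 tested miRNAs 6.76% passed. The leukocyte marker miR-223-3p and the pancreatic islet marker miR-375-3p were higher in females. They were 1 of the 4 leukocyte markers tested and the only one of the 3 pancreas markers with enough counts to be tested. The pancreas markers summed to 3.04 to 5.12 CPM in females and 1.59 to 2.12 CPM in males. The summed stromal markers lay lower in each female library than in each male library, although 0 of 4 passed. The 4 hepatocyte markers, with 0 of 4 past the threshold, summed to 370196 to 373833 CPM in females and 396676 to 440270 CPM in males. The part of these cells in the levels of miR-7081-5p and miR-7021-5p was not tested.

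The 3 earlier-named mirtron hairpins that were looked up were also low in these livers. The hairpins miR-702, miR-877 and miR-1224 lie in introns of 102, 85 and 85 bases, with the 5p arm on the first base of the intron and the 3p arm within 2 bases of its end in all 3. The highest of their 6 arms, miR-877-3p, averaged 0.951 ± 0.551 CPM (females) and 0.464 ± 0.302 CPM (males, SD, n = 3 each). It lay below miR-6978-3p, the second highest late-named arm, in each of the 6 libraries. Yet miR-877-3p had counts in all 6 libraries, as had only 33 of the 395 late-named arms. The other 5 arms had means between 0.0106 and 0.0962 CPM, and none of the 6 was tested. For 2 hairpins that bypass Drosha by another route, with a capped 5′ end made directly by transcription, the most abundant miRNA was higher. The 3p arm miR-320-3p averaged 37.2 ± 3.64 CPM (females) and 39.1 ± 1.75 CPM (males; log2 fold change -0.06, adjusted p = 0.896, edgeR), and miR-484 at 34.4 ± 3.55 and 26.8 ± 5.17 CPM (0.37, adjusted p = 0.417, edgeR). Each of these 2 had a mean above that of miR-7008-5p, the highest of the late-named arms. The other arm of the first, miR-320-5p, had a mean of only 0.104 CPM.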

How the data were processed

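For 6 liver libraries the authors deposited estimated counts of reads for each mature miRNA, without normalisation. Partek, Bowtie and mm10 are named in the submitters' processing notes; no source used here gives versions, trimming, or how multi-mapping reads and molecular identifiers were treated. Of 2045 rows, 138 exact repeats were left out. All counts of the 395 arms were whole numbers. Counts were rounded and tested in edgeR 4.0.16 (quasi-likelihood, R 4.3.3; TMM, robust option, filterByExpr with at least 10 counts and a total of at least 15), with Benjamini-Hochberg adjustment over all 370 tested miRNAs and a threshold of 0.05. SE is the size of the log2 fold change over the root of the F statistic. On simulated counts the test found 28 of 37 changes of 2-fold and 45 of 45 of 4-fold, and it called 0 of 299 unchanged miRNAs. The simulated spread was the same for every miRNA and was not taken from these data.

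The labels do not say how the littermates relate, and the tests treat the libraries as independent. The edgeR p-values set a difference against a spread between libraries that was estimated with information from all tested miRNAs. Replicates were numbered in accession order. No library pair was a duplicate (chi-square per degree of freedom at least 25.3). Stop positions in the table are 1 base past the end of the arm. Introns and exons came from GENCODE M21 with miRNA genes left out, and mature and hairpin sequences from RefSeq GRCm38.p6. The expected number of arms at equal depth is the hypergeometric expectation at 3285249 counts. Arms named are those past the filter and the 10 of highest mean CPM, with the comparison miRNAs; a few others were named after their values were seen. The members and lists were chosen with earlier results of these data known. Alternatives were other scalings, filters and tests (DESeq2 1.42.0, limma 3.58.1) and leaving out each library.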

Additional observations from a re-analysis of the deposited data

How the results depend on the processing

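No paired analysis was possible because the labels give no numbers shared by the sexes. The 2 called arms, miR-7081-5p and miR-7021-5p, were called in each of the 7 alternatives on all libraries that tested both (no TMM factor, upper-quartile and DESeq2 size factors, DESeq2, limma-voom, robust option off, no filter). With the filter of 50 counts 0 were called, since only miR-7008-5p was then tested (1 arm; 0 at an unadjusted p under 0.05). Without a library the count ran from 0 to 3. It was 0 in edgeR, the only tool run there, when female replicate 3 or male replicate 3 was left out, with 2 arms at an unadjusted p under 0.05 each time.

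The summed level was 93.8 CPM on average over the 6 libraries and 74.3 CPM without miR-7008-5p; leaving out a library gave 89.0 to 96.1 CPM. The mean number of arms seen was 161, and 48.7 with at least 3 counts. The 5p share of 60.2% became 49.7% without miR-7008-5p. The share of hairpins with more 5p counts had a median of 46.3%. The number of arms at a splice site, 202, was 171 with no tolerance, 208 within 5 bases and 201 with coding transcripts only.

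Of 103 values of the 8 tested arms, 87 had the same sign and the same side of the threshold, 6 no longer passed, 1 newly passed (miR-6978-3p) and 9 had the opposite sign, none of these past the threshold. For miR-7008-5p these were 0.14 with no TMM factor, 0.072 in limma-voom, 0.0058 with no filter, 0.03 without female replicate 1, 0.09 without female replicate 3, 0.065 without male replicate 1 and 0.19 without male replicate 2; without a library the value ran from -0.25 to 0.19. For miR-6937-5p the opposite signs were -0.32 (female replicate 1 left out) and -0.19 (male replicate 1 left out), and leaving out a library gave -0.32 to 0.68. The cause was not tested. At these counts depth limits what can be shown: 387 arms were too low to test.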
